A study of Xenopus laevis with 6 samples.

Results

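Cadherins, protocadherins and catenins were taken from the deposited expression table by gene symbol, as every entry named cdh with a number, every pcdh entry and the ctnna and ctnnd entries. The rule found 64 rows for 37 genes among the 42549 rows of the table. Xenopus laevis is allotetraploid, so a gene can have 2 rows, .L and .S, which are its homeologs on the long and the short subgenome. The 6 classical cadherin rows belonged to cdh1, cdh2 and cdh3. Another 28 rows belonged to 17 other cadherin genes, 26 rows to 14 protocadherin genes and 4 rows to 3 catenin genes. The members were set by their names and not by their values.

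The samples were double explants of wild type neuroectoderm, made by joining pieces of stage 11.5 gastrulae by their inner sides and pinning them to agarose with glass needles. In the 3 control samples the pinned explants were not stretched, and in the 3 stretched samples they were stretched over 3 h. By the paper's methods, explants of both groups were lysed after 3 h, so the stage is that at excision. Poly(A) RNA was sequenced in all 6 samples. How many explants went into each sample is not given in the sources used here.

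Cadherins are transmembrane proteins that hold neighbouring cells together in the presence of calcium. The cytoplasmic tail of a classical cadherin binds beta-catenin, which binds alpha-catenin and through it F-actin, while p120 catenin (ctnnd1) binds the tail near the membrane and slows the removal of the cadherin from the cell surface. Alpha-catenin opens under pulling force and then binds vinculin, so that this chain is a known site where tension reaches the cytoskeleton. Protocadherins share the extracellular cadherin repeats but lack the catenin-binding tail, and several of them act in cell sorting and in the movements of the frog gastrula.

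The only values used here are the authors' average log2 CPM (CPM, reads scaled to 1 M counted reads), with 1 value per row over all samples. The average pools control and stretched explants, so a gene that differed between them would not show it in this value. No stretched against control difference is reported for any member, since no values of single samples were used, and no spread between replicates can be given. Levels are also not per transcript length, so an order of genes below is an order of reads and not of transcripts.

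The lowest value of the table, a log2 CPM of -2.08, was shared by 12476 rows and stands for 0 reads. Values above it rose in steps of 1 part in 12 of that lowest CPM, which is the step of 1 read when a prior count of 2 is added in each of 6 samples. On this scale 99.1% of the 11900 rows with 1 to 50 reads, and all 33 such member rows, came within 0.1 of a whole number of reads. The steps give a mean of about 8.45 M counted reads per sample, and 1 read over all samples is worth 0.0197 CPM. The paper's methods give a larger minimum of reads generated per sample, and the reason for this gap was not tested. Read totals below are totals over all 6 samples reached in this way, approximate above 50 reads. For a row with 0 reads, a fixed limit of 3 expected reads, or 0.0592 CPM, was used. The upper end of the Poisson interval described next is 3.69 reads for such a row. Intervals are exact 95% intervals (Poisson for reads, Clopper-Pearson for shares) and cover counting error only.

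Of the 64 member rows, 58 (90.6%) had reads and 6 had none, against 70.7% of rows with reads in the whole table. A smaller share lay at higher levels, as 27 rows (42.2%) lay above a log2 CPM of 0 and 18 (28.1%) above 1, while these shares were 44.4% and 38.8% in the whole table. The whole table is an unlike background, since all member rows carry a .L or .S name. In the table only 12691 rows carry .L and 9534 carry .S. Among genes with a row for each subgenome, both rows had reads in 22 of 27 member pairs and in 6666 of 7768 pairs of the table. Both lay above 0 in 9 member pairs and in 4716 pairs of the table. The higher share of members with reads was thus not seen among pairs. There were 25 of 64 member rows with 10 reads or fewer, beside 20073 of 42549 rows of the table. All members together took 0.292% of the counted reads, and 84.1% of the members' reads lay in 5 rows, which were ctnna1.S, cdh3.L, cdh1.S, cdh3.S and ctnnd1.L. The reads of this family thus came mainly from 2 classical cadherins and from the alpha- and p120 catenins.

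**Figure D1:**
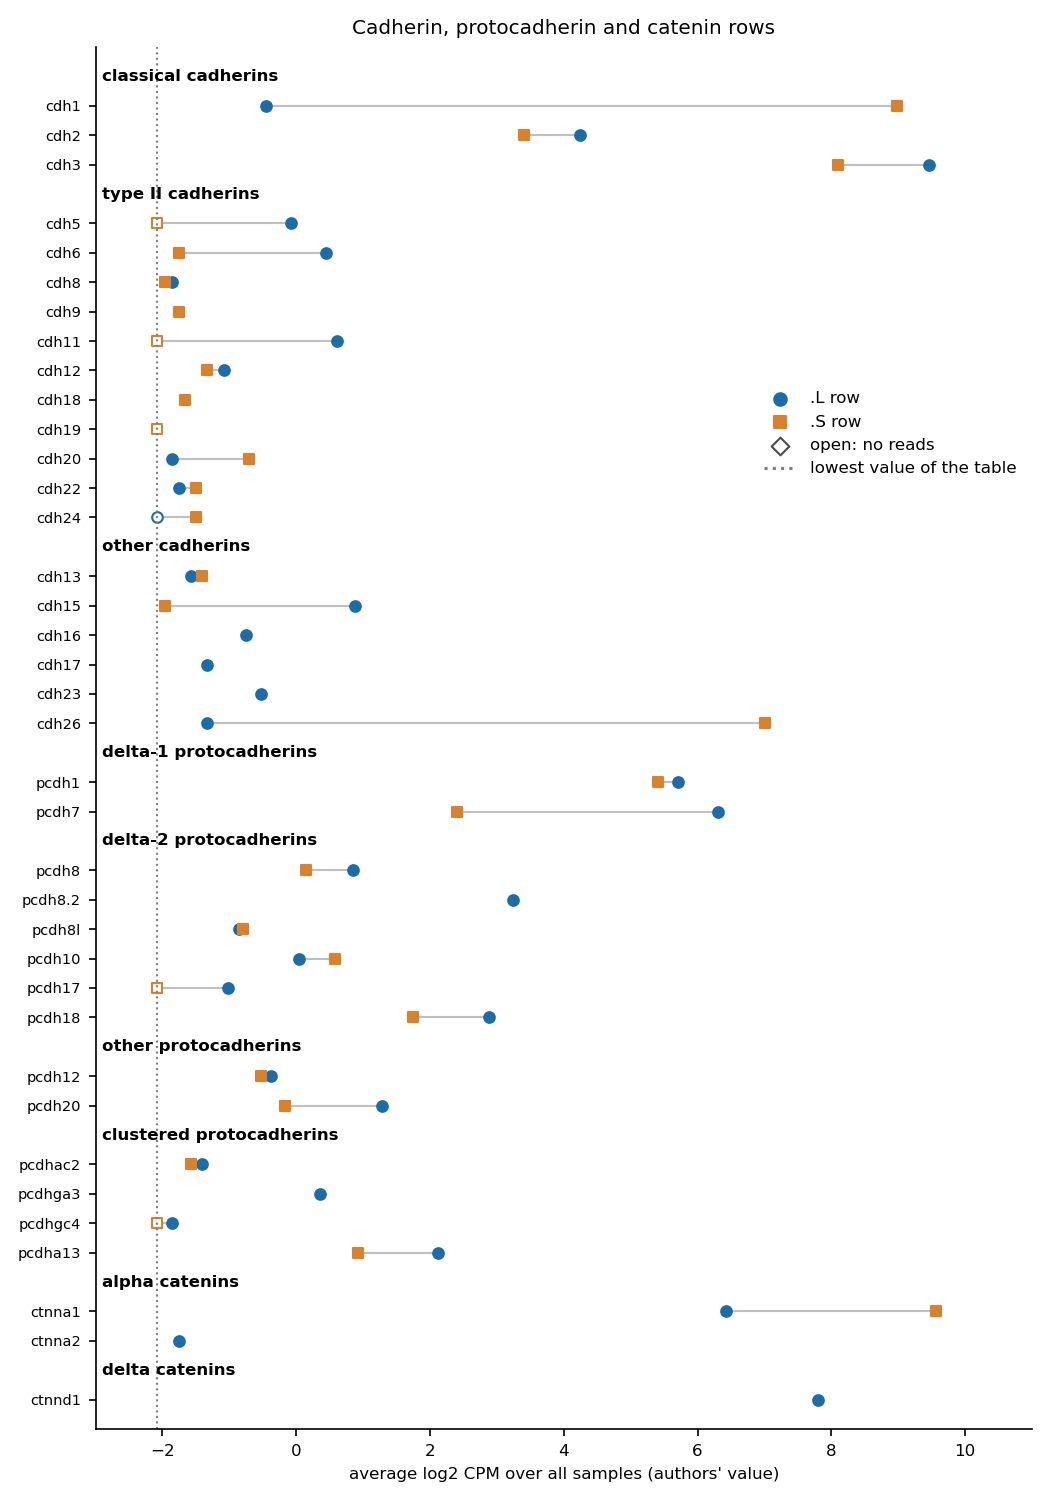
Average log2 CPM over all samples (horizontal axis, the authors' value) of each member row, with .L rows as circles, .S rows as squares, open symbols for rows without reads and a dotted line at the lowest value of the table (-2.08). The rows cdh3.L, cdh3.S, cdh1.S, ctnna1.S and ctnnd1.L reach the right side of the plot. The rows of cdh2 lie at 4.24 and 3.41, and cdh1.L lies at -0.45. The genes pcdh1 and pcdh7 lead the protocadherins, and cdh26.S at 7.01 stands alone among the non-classical cadherins.

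Among the classical cadherins, cdh3 took the most reads. It encodes C-cadherin, which in Xenopus is supplied by the egg and holds blastomeres and gastrula cells together. The log2 CPM of cdh3.L was 9.46 (703 CPM, about 35608 reads) and that of cdh3.S was 8.11 (275 CPM, about 13942 reads). Among all rows with reads these levels were at percentiles 99.5 and 98.3. Adding the homeologs, cdh3 held 64.7% of the summed classical cadherin CPM (95% interval 64.4 to 65.1).

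E-cadherin, encoded by cdh1, is the cadherin of epithelia and of the outer ectoderm. Its reads were almost entirely in the .S row, with a log2 CPM of 8.97 (503 CPM, about 25487 reads, percentile 99.2). The .L row had a log2 CPM of -0.45 and 25 reads (16.2 to 36.9). Together the cdh1 rows held 33.3% of the classical cadherin CPM (33.0 to 33.7), so that cdh3 and cdh1 made up nearly all of it and their intervals did not overlap.

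N-cadherin, encoded by cdh2, is the classical cadherin that the neural plate takes up as it separates from the epidermis. The log2 CPM of cdh2.L was 4.24 (18.9 CPM, about 945 reads, interval 886 to 1007) and that of cdh2.S was 3.41 (10.6 CPM, about 526 reads, interval 482 to 573). These were few reads beside those of the other classical cadherins, with cdh2.L at percentile 73.4 of rows with reads. The gene held 1.95% of the classical CPM (1.83 to 2.02). The rows cdh1.S, cdh3.L and cdh3.S together held 98.0%. The rule found no row named cdh4, which encodes R-cadherin.

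**Figure D2:**
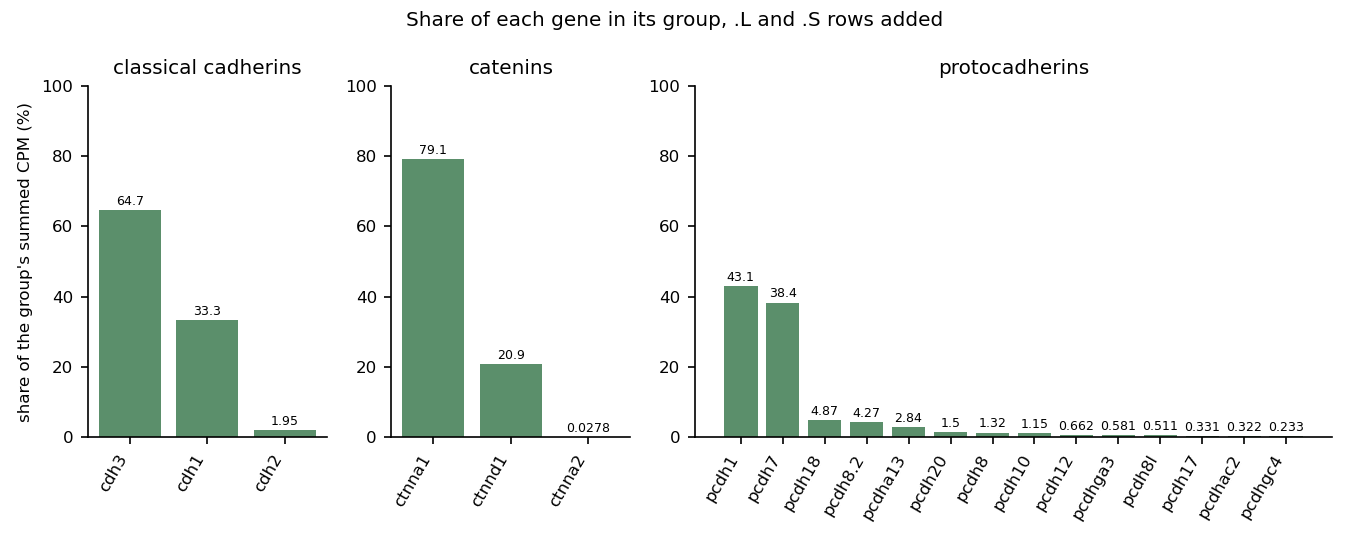
Share of each gene in the summed CPM of its group in percent (vertical axes, homeologs added, 1 bar per gene), for classical cadherins, catenins and protocadherins. The bars show 64.7% for cdh3 and 33.3% for cdh1, 79.1% for ctnna1, and 43.1% and 38.4% for pcdh1 and pcdh7.

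Of the catenins covered by the rule, ctnna1 took the most reads. It encodes alpha-E-catenin, the link from the cadherin complex to F-actin. Its .S row had the highest level of all member rows, with a log2 CPM of 9.56 (757 CPM, about 38368 reads, percentile 99.5), and its .L row had 6.43 (86.2 CPM, about 4357 reads). The gene held 79.1% of the catenin CPM (78.8 to 79.4).

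The p120 catenin row ctnnd1.L had a log2 CPM of 7.80 (223 CPM, about 11284 reads, percentile 97.6) and held 20.9% of the catenin CPM (20.5 to 21.2). Alpha-N-catenin, encoded by ctnna2 and known from neurons, was near the limit of detection, with 3 reads in ctnna2.L (0.619 to 8.77) and a log2 CPM of -1.76. The summed CPM of the catenin rows was 1067 and that of the classical cadherin rows 1512. This catenin sum leaves out beta-catenin (ctnnb1) and plakoglobin (jup), which fall outside the rule. Their .L and .S rows had 1671 and 1556 CPM for ctnnb1, and 291 and 124 CPM for jup. The rule found no row named ctnnd1.S, ctnna3 or ctnnd2.

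The protocadherins took fewer reads, with a summed CPM of 220 over 26 rows. Of these rows 24 had reads, 15 (57.7%) lay above a log2 CPM of 0 and 9 above 1. Their median log2 CPM was 0.25, against 6.17 for the classical cadherin rows and -0.86 for the whole table, which also holds rows without a .L or .S name. Most protocadherin genes were therefore measured, at low levels, and a pair of genes carried most of the reads.

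This pair was pcdh1 and pcdh7, the delta-1 protocadherins. In Xenopus pcdh1 is known as axial protocadherin, a sorting molecule of the axial mesoderm, and pcdh7 as NF-protocadherin, an adhesion molecule of the ectoderm. The log2 CPM of pcdh1.L was 5.71 (52.2 CPM, about 2636 reads) and that of pcdh1.S was 5.42 (42.7 CPM, about 2151 reads). The log2 CPM of pcdh7.L was 6.31 (79.3 CPM, about 4005 reads) and that of pcdh7.S was 2.41 (5.30 CPM, about 257 reads). The highest protocadherin row was thus pcdh7.L, at percentile 91.2, while pcdh1 led when homeologs were added. Of the summed protocadherin CPM, pcdh1 held 43.1% and pcdh7 38.4%. Counted as reads without the prior, the shares were 44.1% (43.1 to 45.0) and 39.2% (38.3 to 40.2), and these intervals did not overlap.

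The delta-2 protocadherins had 11 rows, of which 10 had reads and 7 lay above a log2 CPM of 0, with a median of 0.15. The highest was pcdh8.2.L, named as a second pcdh8 gene, at a log2 CPM of 3.24 (9.42 CPM, about 465 reads, interval 424 to 509). The rows of pcdh8 itself, which encodes the paraxial protocadherin that acts in the convergent extension of Xenopus mesoderm, were lower, at 0.84 in pcdh8.L (about 79 reads) and 0.15 in pcdh8.S (44 reads). The order within this small group was therefore pcdh8.2 before pcdh8, with intervals of reads that did not overlap. The related pcdh8l, known as PCNS in Xenopus neural crest and somites, had 16 reads in .L and 17 in .S.

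The rows of pcdh18 had a log2 CPM of 2.88 (.L, about 362 reads) and 1.75 (.S, about 158 reads). In the RefSeq gene order no protein-coding gene stands between pcdh18 and pcdh10 on either subgenome, and pcdh10, which encodes OL-protocadherin, was read less than its neighbour in both, at 0.04 in .L (40 reads) and 0.58 in .S (about 64 reads). On the L subgenome pcdh17, pcdh8.2 and pcdh8 also follow each other with no protein-coding gene between them, and had 13, about 465 and about 79 reads. The .S row of pcdh17 had no reads.

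Among the protocadherins outside these groups, pcdh20.L had a log2 CPM of 1.28 (about 111 reads) and pcdh20.S had -0.17 (33 reads). The rows of pcdh12, which in mammals is an endothelial protocadherin, had 27 and 23 reads. These genes contributed 4.77 of the 220 protocadherin CPM.

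The clustered protocadherins, which in vertebrates share constant exons within a cluster and are best known from neurons, had 7 rows with a summed CPM of 8.76. The alpha-type row pcdha13.L reached a log2 CPM of 2.13 (4.36 CPM, about 209 reads) and pcdha13.S had 0.92 (about 84 reads). The gamma-type row pcdhga3.L had 0.36 (about 53 reads), while pcdhac2 had 7 and 5 reads and pcdhgc4 had 2 and 0. Reads from shared exons could be counted for more than 1 of these genes or for none, so the split between them is uncertain.

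Of the 28 rows of cadherins outside the classical group, 24 had reads, but only 4 (14.3%) lay above a log2 CPM of 0 and 1 above 1, and 19 had 10 reads or fewer. The non-classical row above 1 was cdh26.S, with a log2 CPM of 7.01 (129 CPM, about 6502 reads, interval 6345 to 6662, percentile 95.0). In humans cdh26 is an epithelial cadherin. It held 90.5% of the summed CPM of these rows, and 94.6% of their reads (94.1 to 95.1). It took more reads than cdh2, pcdh1 or pcdh7, and its partner row cdh26.L had 8 reads.

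The type II cadherins had 19 rows for 11 genes, of which 15 had reads and 2 lay above a log2 CPM of 0. Those were cdh11.L, at 0.60 with about 65 reads, and cdh6.L, at 0.45 with about 57 reads. In Xenopus cdh11 is a cadherin of the cranial neural crest, and in vertebrates cdh6 marks early neural folds and kidney. The endothelial cadherin cdh5.L had 36 reads and a log2 CPM of -0.08. The 14 type II rows with 10 reads or fewer included all rows of cdh8, cdh9, cdh18, cdh19, cdh22 and cdh24, and no order among them can be read at this depth.

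Of the other cadherins, the muscle cadherin cdh15 had about 81 reads in .L (log2 CPM 0.88, interval 64.3 to 101) and 1 read in .S. The hair cell tip link cadherin cdh23.L had 23 reads, the kidney cadherin cdh16.L had 18 and the gut cadherin cdh17.L had 8. The GPI-anchored cdh13 had 5 reads in .L and 7 in .S. The lowest member values above that of 0 reads were those of cdh8.S and cdh15.S, with 1 read each, and of rows with 2 reads such as cdh20.L.

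**Figure D3:**
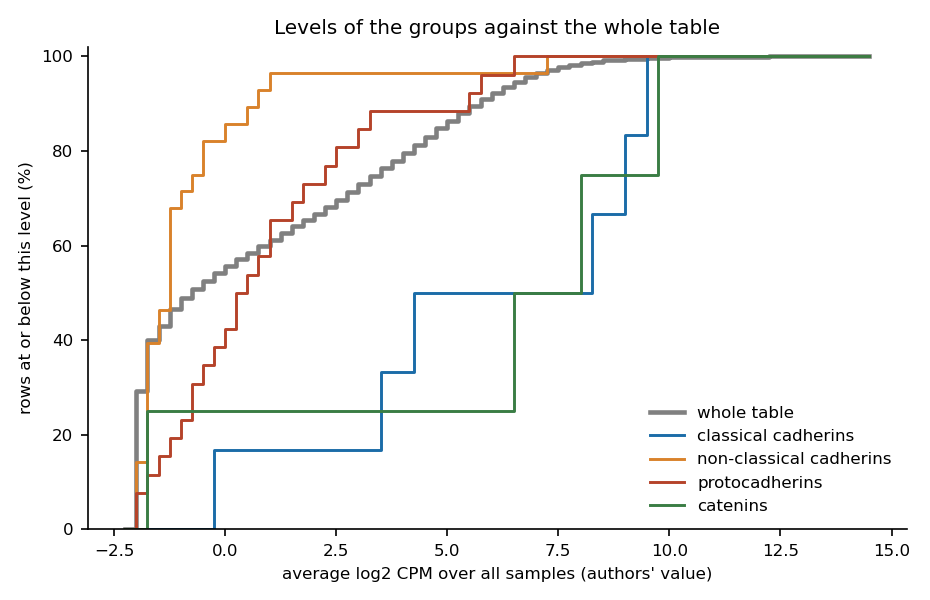
Share of rows at or below each average log2 CPM (horizontal axis, the authors' value; vertical axis in percent) for the classical cadherins, the non-classical cadherins, the protocadherins, the catenins and the whole table. At a log2 CPM of 0, the non-classical curve leaves 14.3% of rows above it, against 57.7% of protocadherin rows and 44.4% of the whole table, and the classical and catenin curves lie to the right.

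The homeologs were then compared within each gene. There were 27 genes with a row for each subgenome (54 rows), while for 7 .L rows and 3 .S rows the rule found no partner row. The homeologs are alike in sequence, and how reads matching both were assigned is not known, so the split of a pair is uncertain. Of the 22 pairs with reads in both rows, .L was above .S in 14 (63.6%), and in the whole table this was so for 3753 of 6666 such pairs (56.3%). The median share of .L in the CPM of a pair was 53.7% for the members and 53.6% for the whole table. The prior draws this share toward 50% in rows with few reads. As a share of reads, without the prior, the median was 59.2% for the members and 54.5% for the whole table. In pairs with at least 100 reads it was 64.2% for the 12 member pairs and 54.9% for the 5455 pairs of the table. On the read scale the members' median was thus nearer to .L, in a small number of pairs. The 59.2% lay between pcdhac2 (7 and 5 reads) and cdh12 (12 and 8 reads), whose intervals hold an equal split. By their intervals 48.1% of the 27 member pairs leaned to .L, beside 46.3% of all pairs with reads. In pairs with at least 100 reads these shares were 66.7% and 53.8%. A lean particular to the members was not tested.

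The most unequal pairs were cdh1 and cdh26, both toward .S. The .L row held 0.0980% of the cdh1 reads (0.0634 to 0.145) and 0.123% of the cdh26 reads (0.0531 to 0.242). On the CPM scale, which includes the prior and so understates the ratio, the .S row was 688-fold and 326-fold higher. Among the 5455 pairs of the table with at least 100 reads, 73 (1.34%) were over 100-fold apart, and these genes were 2 of the 12 member pairs. By the size of the ratio they ranked at percentiles 99.9 and 99.8 of those pairs.

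The genes cdh1 and cdh3 are neighbours on both subgenomes, with no protein-coding gene between them in the RefSeq order, and their homeologs were divided in opposite directions. The .L row held 71.9% of the cdh3 pair (71.5 to 72.3), or 2.55-fold the .S level. Thus cdh3.L had a high level next to cdh1.L with 25 reads, whereas cdh3.S and cdh1.S were both high. For cdh2 the .L row held 64.0% of the CPM (61.7 to 66.7 by reads), 1.78-fold the .S level.

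Among the catenins and protocadherins, ctnna1 leaned to .S, with 10.2% of the CPM in .L (9.91 to 10.5), an 8.78-fold difference. The opposite was seen for pcdh7, with 93.7% of the CPM in .L (93.2 to 94.7 by reads), a 15.0-fold difference, which was over 10-fold as in 13.7% of all pairs with at least 100 reads. The pairs of pcdh18 and pcdha13 leaned to .L, with 68.7% (65.5 to 73.5 by reads) and 69.7% (65.8 to 76.4 by reads). That of pcdh1 was closest to even among the well-read pairs, with 55.0% (53.6 to 56.5). The pair of pcdh10 leaned the other way, with 40.6% in .L (29.1 to 48.5 by reads).

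Reads for a single homeolog were found in 5 of the 27 member pairs, and the other 22 had reads in both rows. Of the table's 7460 pairs with reads, 6666 had reads in both rows. All 65 reads of cdh11 were in .L, which by the interval leaves .L at least 94.5% of the pair. For cdh5 all 36 reads were in .L (at least 90.3%), and for pcdh17 all 13 (at least 75.3%). All 6 reads of cdh24 were in .S, which leaves .L up to 45.9%, and the 2 reads of pcdhgc4, both in .L, were too few to show a lean. By the intervals of the read shares, 19 of the 27 pairs (70.4%) left out an equal split of 50%, with 13 toward .L and 6 toward .S. Among all 7460 pairs of the table with reads, 80.3% left it out, 46.3% toward .L and 34% toward .S. In pairs with at least 100 reads, all 12 member pairs left it out, 8 toward .L and 4 toward .S, beside 93.1% of the table's pairs, with 53.8% toward .L and 39.3% toward .S. An unequal split was therefore common in the table as well. The intervals of the other 8 pairs held an equal split. No lean was detected at this depth in cdh8, cdh12, cdh13, cdh22, pcdh12, pcdh8l, pcdhac2 and pcdhgc4. Of these, pcdh12 (27 and 23 reads) and pcdh8l (16 and 17 reads) were near even as read. Their .L shares had intervals of 39.3 to 68.2% and 30.8 to 66.5%. Both leave room for a lean as large as that of cdh2, with 64.0% of the CPM in .L.

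**Figure D4:**
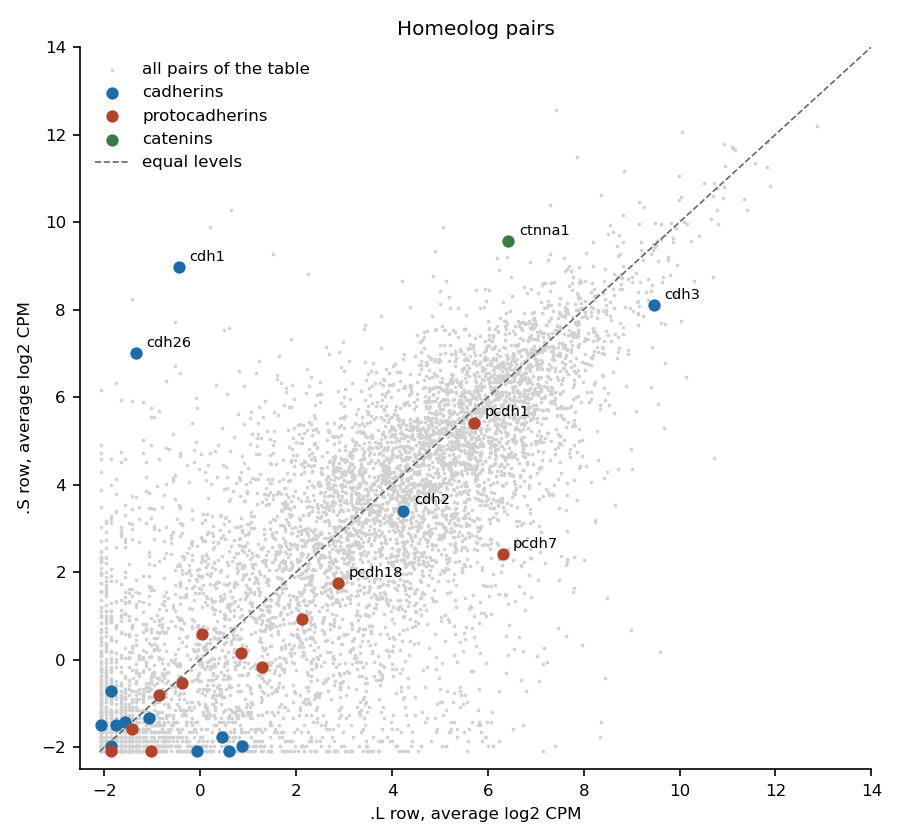
Average log2 CPM of the .L row (horizontal axis) and of the .S row (vertical axis) of each homeolog pair, with all pairs of the table in grey, member pairs in colour and a dashed line at equal levels. The points of cdh1 and cdh26 lie far above the line with .L values of -0.45 and -1.34, ctnna1 lies above it, and pcdh7 lies below it.

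Partners of the cadherin complex outside the rule were read from a list of 28 genes, of which 25 had rows (41 rows). Of these rows 39 had reads, 30 lay above a log2 CPM of 0 and 25 above 1. Beta-catenin had a log2 CPM of 10.71 in ctnnb1.L and 10.60 in ctnnb1.S, more reads than any member row took. Plakoglobin, its relative in desmosomes and adherens junctions, had 8.19 in jup.L and 6.95 in jup.S. The p120 relative arvcf had 7.17 and 7.23, another, pkp4, had 5.23 and 4.92, and vinculin had 4.40 in vcl.S. Transcripts for each link from the cadherin tail to vinculin were therefore read in these explants.

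Among the distant relatives, the planar polarity cadherin celsr1 had a log2 CPM of 8.31 in .L and 7.36 in .S, and celsr2.L had 6.65. The giant cadherins fat4 and dchs1 were between -0.02 and 0.66, and their relatives fat2.S, fat3.S and dchs2.L were lower, at -1.02, -1.86 and -0.91. The protease adam10, which sheds cadherin ectodomains, had 6.71 in adam10.S. All rows of the cadherin-related cdhr genes lay below 0.

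The tissue was checked against marker lists. All 13 neural rows lay above a log2 CPM of 1, from 1.39 for ncam1.S to 8.07 for sox3.S, with sox2.L at 5.84. Of the 16 epidermal rows, 15 lay above 1, up to 10.57 for epcam.S, and tp63.L was at -1.41. Mesodermal rows were present, with tbxt.S at 6.79, tbxt.L at 5.84 and the others between -0.20 and 1.84. Of the 7 mesodermal rows (4 of 7 genes listed), 6 lay above 0. The listed symbol chrd matched no row, but rows named chrd.1, not counted here, were at 4.15 in .L and 5.46 in .S. Of the 8 endodermal rows (5 of 6 genes listed), a2m.S was at 6.78 and the others between -0.76 and 1.26. All 8 had reads and 6 lay above 0, and a2m.S was level with tbxt.S. Markers of all 4 lists were thus read in the average, and which cells carried the cadherin reads was not tested. In such bulk samples fewer cells of a type and less RNA per cell cannot be told apart.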

How the data were processed

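RNA of 3 control and 3 stretched samples was sequenced after poly(A) selection. In the submitters' processing notes the tools are edgeR, DESeq, HTSeq and TopHat2 without version numbers, whereas the paper's methods name STAR and DESeq2. Which genome build and annotation were used is not given in the sources used here. A single table was deposited by the authors without values per sample, and its average log2 CPM, a log2 value over the samples of the authors' fit, is the only measurement used. Its other columns hold the authors' own comparison of stretched with control explants (log2 fold change, F, p-value and FDR) and were not used, so that the count test planned for the members was not fitted. In the table used here 1 line was empty.

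CPM was taken as 2 to the power of the log2 CPM. Reads were obtained from the steps above the lowest value, assuming that a prior count of 2 per sample had been added before the log. The calculation was tried on simulated data made with the same prior count, so that trial cannot test the assumed prior. Members were found by symbol, and all 64 matched the Xenopus laevis v10.1 RefSeq annotation, used for names and gene order only. The members and lists were chosen with earlier results of these data known. Rows of cdh1 to cdh4 and of the catenins, other members with a log2 CPM above 1, and the 3 highest and 3 lowest members were named by rule, and others were named with their values known. Tried as alternatives were limits on the level, subtraction of the lowest CPM and, chosen after seeing the data, more than 10 reads. Since no replicate values were used, no test was made. Python 3.11.15, numpy 2.4.6, pandas 2.3.3, scipy 1.17.1 and matplotlib 3.10.9 were used.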

Additional observations from a re-analysis of the deposited data

How the results depend on the processing

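The number of members counted as detected depended on the limit, with 58 rows having reads, 39 having more than 10 reads (a limit chosen after seeing the data), 27 lying above a log2 CPM of 0 and 18 above 1. Pairs with .L above .S numbered 14 of 22 with reads in both rows, 7 of 9 (77.8%) with both rows above 0 and 5 of 6 (83.3%) with both above 1, beside 56.3%, 56.1% and 56.4% of the whole table's pairs. With the lowest CPM subtracted, which removes the prior, the median share of .L in a pair was 59.2% in place of 53.7%. That of the whole table was 54.5% in place of 53.6%. The members' 59.2% lay between pcdhac2 (7 and 5 reads) and cdh12 (12 and 8 reads), which are pairs with few reads. A gap was also seen in pairs with at least 100 reads, with medians of 64.2% for the 12 member pairs and 54.9% for the table. The number of member pairs is small, and a lean particular to them was not tested. The counting intervals are those of the read shares, without the prior. In 17 of the 22 pairs with reads in both rows the CPM share lay within this interval. In 5 it lay outside (cdh1, cdh6, cdh15, cdh20 and cdh26), and none changed direction. Of the 5 pairs with reads for 1 row only, cdh11 (86.5%), cdh5 (80.0%) and pcdh17 (67.6%) also had a CPM share outside, below their intervals. The shares of cdh24 and pcdhgc4 lay within. The shares of cdh1, cdh2 and cdh3 in the classical cadherin CPM lay within theirs. That of pcdh1 in the protocadherin CPM, 43.06%, lay just below its interval, which began at 43.14%.

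No paired analysis was possible because no values of single samples were used. For the same reason no fit without a replicate was made and no count test was run. Levels per transcript length and protein identity within pairs, both planned, were not run because no transcript or protein sequences were held. The read totals rest on an assumed prior count of 2. Among the 25 rows with 10 reads or fewer, counting error leaves the order unresolved.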
